A study of Rattus norvegicus with 12 samples.

Results

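The collagen genes Col2a1, Col9a1, Col9a2, Col9a3, Col11a1, Col11a2 and Col27a1 were followed across 12 arrays of rat knee articular cartilage. These 7 genes encode the chains of the fibrils of hyaline cartilage, and the set was drawn up by gene name, with earlier results of these data known. On the array, 11 of 31099 probe sets carried the symbol of a member gene and of no other gene, with 3 probe sets for Col2a1, 3 for Col11a1 and 1 for each of the other 5 genes. Of the 14218 genes named on the array, the 7 members all had a probe set above the filter on low values (log2 value above 4 in at least 3 of 12 arrays), and 10 of their 11 probe sets passed it.

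Biotin-labelled RNA from the cartilage was read on Affymetrix arrays, 3 in each of 4 groups: rats 8 weeks after surgery that induces osteoarthritis (OA), sham-operated rats at 8 weeks, rats 2 weeks after OA surgery and sham-operated rats at 2 weeks. OA is a degenerative joint disease with loss of articular cartilage, and a sham operation controls for the surgery itself. The labels used here give the operation and the time after it. They do not give strain, sex, age or whether an array held 1 animal or a pool, and they do not say that the arrays of a group came from separate animals, so all p-values measure only the spread between these samples.

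Cartilage owes its tensile strength to thin fibrils made of several collagens. The main body of a fibril is type II collagen, a homotrimer of the Col2a1 product. Type XI collagen, built from the Col11a1 and Col11a2 chains together with a further chain derived from Col2a1, lies within the fibril and limits its width. Type IX collagen, a heterotrimer of the Col9a1, Col9a2 and Col9a3 chains, sits on the fibril surface with interruptions in its triple helix and is crosslinked to type II collagen. Type XXVII collagen, the Col27a1 product, is a further fibril-forming collagen of cartilage, known chiefly from the growth plate. Mutations in most of these genes cause chondrodysplasias in humans, with early osteoarthritis among the features of several.

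The tissue carried the marks of cartilage throughout. All 7 chondrocyte markers with a probe set exceeded a log2 value of 4 in every array, and the mean level of the list was 12.03 to 12.33 in OA and 12.17 to 12.60 in sham at 8 weeks, and 12.14 to 12.47 in OA and 12.29 to 12.50 in sham at 2 weeks. Comp, which encodes a pentameric matrix protein that binds collagen fibrils, ranged from 15.36 to 15.59 over the 12 arrays and had the narrowest range of the 7. Acan, which encodes the main cartilage proteoglycan, ranged from 14.10 to 14.64, Chad from 15.32 to 15.71 and Hapln1 from 14.84 to 15.70. Matn1 ranged more widely, from 9.26 to 10.48, and Cnmd the most, from 9.46 to 13.18, while Ucma lay just above the filter, at 4.12 to 4.94. Bone and muscle markers were present too, and they differed between the groups, as given beside the results. Replicate 1 of the OA group at 8 weeks stood apart, with a mean muscle marker level of 14.46 (9.39 and 10.89 in the other 2 OA arrays of that time), a mean correlation with its own group of 0.986 (0.991 to 0.996 for the other 11 arrays) and a 3' minus 5' difference of the actin control probe sets of 5.38 (7.72 to 8.66 in the others). The count of collagen genes called at 8 weeks is therefore also given without this array.

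The 3 chains of type IX collagen were lower in OA than in sham cartilage at 8 weeks, and they were the only members for which that difference passed the test. Col9a1, whose product carries the large globular domain that projects from the fibril, had log2 values of 14.80, 14.99 and 15.10 in the OA arrays, against 15.55, 15.43 and 15.36 in the sham arrays. Every OA array lay below every sham array. It fell 1.40-fold in OA, with a log2 difference of -0.48 ± 0.10 (standard error, 3 arrays per group, limma adjusted p = 0.0296). Col9a2, which encodes the second chain and carries a glycosaminoglycan attachment site in the chicken protein, had log2 values of 12.01, 12.24 and 12.60 in OA and 13.54, 13.09 and 13.34 in sham. The groups did not overlap, and the gap between the highest OA and the lowest sham array was wider than for Col9a1. The fall was 2.06-fold (log2 difference -1.04 ± 0.20, adjusted p = 0.0247). Col9a3, which encodes the third chain, had log2 values of 14.36, 14.30 and 14.45 in OA, against 15.01, 14.94 and 14.95 in sham. These were the tightest of the type IX values within each group, and they did not overlap either. The gene fell 1.51-fold (log2 difference -0.60 ± 0.10, adjusted p = 0.0158).

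Of all 9247 genes with a kept probe set, 2.45% were called lower in OA at 8 weeks and 1.03% higher, beside 3 of 7 members lower and 0 of 7 higher. Since the members were picked with earlier results known, these shares are a description and not a test of the set. The median log2 difference of the 7 members was -0.48, that of all 9247 genes -0.03. Cartilage RNA was measured in bulk, so fewer chondrocytes in the sample and less of a transcript in each chondrocyte cannot be told apart. The call of the 3 genes depended on the arrays in the fit. It was lost for all 3 when OA replicate 2, sham replicate 2 or sham replicate 3 of 8 weeks was left out, and for Col9a1 and Col9a2 when OA replicate 1 of 8 weeks was left out, while the log2 differences of the 3 genes kept between -0.40 and -1.16 over these 4 fits. Deviations of same-numbered OA and sham arrays from their group means correlated only weakly at 8 weeks, at 0.119 to 0.239. With the numbers taken as pairs within a time, Col9a1 no longer passed (limma adjusted p = 0.0561), while Col9a2 (0.0262) and Col9a3 (0.0170) did.

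**Figure D1:**
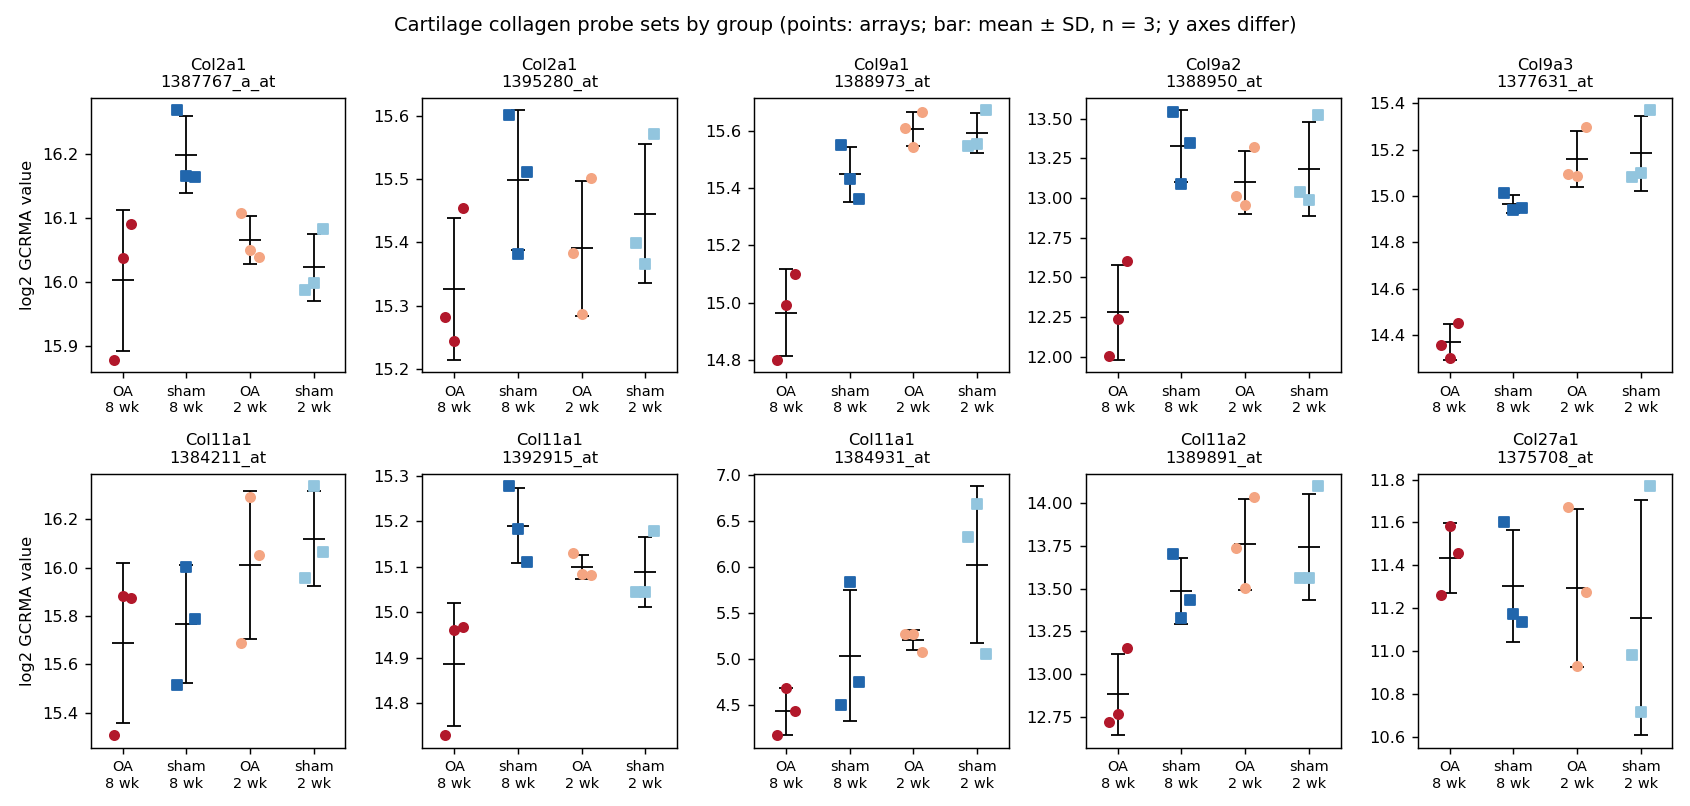
Log2 GCRMA values (y axis, own range in each panel) of the 10 kept probe sets of the 7 collagen genes in the 4 groups (x axis), with 1 point per array and the mean ± SD of 3 arrays. The OA arrays of 8 weeks lie below all sham arrays of 8 weeks for Col9a1, Col9a2, Col9a3, Col11a2, the Col2a1 probe set 1387767_a_at and the Col11a1 probe set 1392915_at.

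At 2 weeks the values of the same 3 genes overlapped between the groups. Col9a1 had log2 values of 15.61, 15.55 and 15.67 in OA and 15.55, 15.56 and 15.67 in sham. Col9a2 had log2 values of 13.02, 12.96 and 13.32 in OA, against 13.04, 12.99 and 13.52 in sham. Col9a3 had log2 values of 15.10, 15.09 and 15.30 in OA and 15.08, 15.10 and 15.37 in sham. In each gene replicate 3 was the highest array of both groups. The remaining 2 arrays of each group lay close together for Col9a2 and Col9a3, and for Col9a1 in sham. The log2 differences were 0.01 ± 0.10 for Col9a1, -0.08 ± 0.20 for Col9a2 and -0.02 ± 0.10 for Col9a3, all with a limma adjusted p of 0.99996. The 95% intervals ran from -0.20 to 0.23, from -0.53 to 0.36 and from -0.25 to 0.20, so a fall of the size measured at 8 weeks lay outside the interval for each of the 3 genes.

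Whether the OA effect differed between the times was tested as the interaction, the 8-week difference minus the 2-week difference. It was -0.50 ± 0.14 for Col9a1, -0.96 ± 0.28 for Col9a2 and -0.57 ± 0.14 for Col9a3 on the log2 scale, and none passed (limma adjusted p = 0.237, 0.270 and 0.191). Of all kept probe sets, 0.138% passed this test, and 0.0753% of all kept probe sets passed it with a negative sign. The interaction was called for 0 of 7 members, and 3 of 7, the type IX genes, had an unadjusted p under 0.05. Counted by probe set, 4 of 10 member probe sets lay under 0.05, beside 1760 of all 15934 kept probe sets. The Col11a1 probe set 1392915_at was among them, so this count was not limited to type IX. Averaged over both times, the OA minus sham differences were -0.23 ± 0.07, -0.56 ± 0.14 and -0.31 ± 0.07 (adjusted p = 0.194, 0.137 and 0.117). For the average, 0 of 7 members were called beside 0.364% of all kept probe sets, and the same 3 genes had an unadjusted p under 0.05. Counted by probe set, 5 of 10 member probe sets lay under 0.05, beside 1976 of the 15934. The Col11a1 probe sets 1392915_at and 1384931_at were among them.

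**Figure D2:**
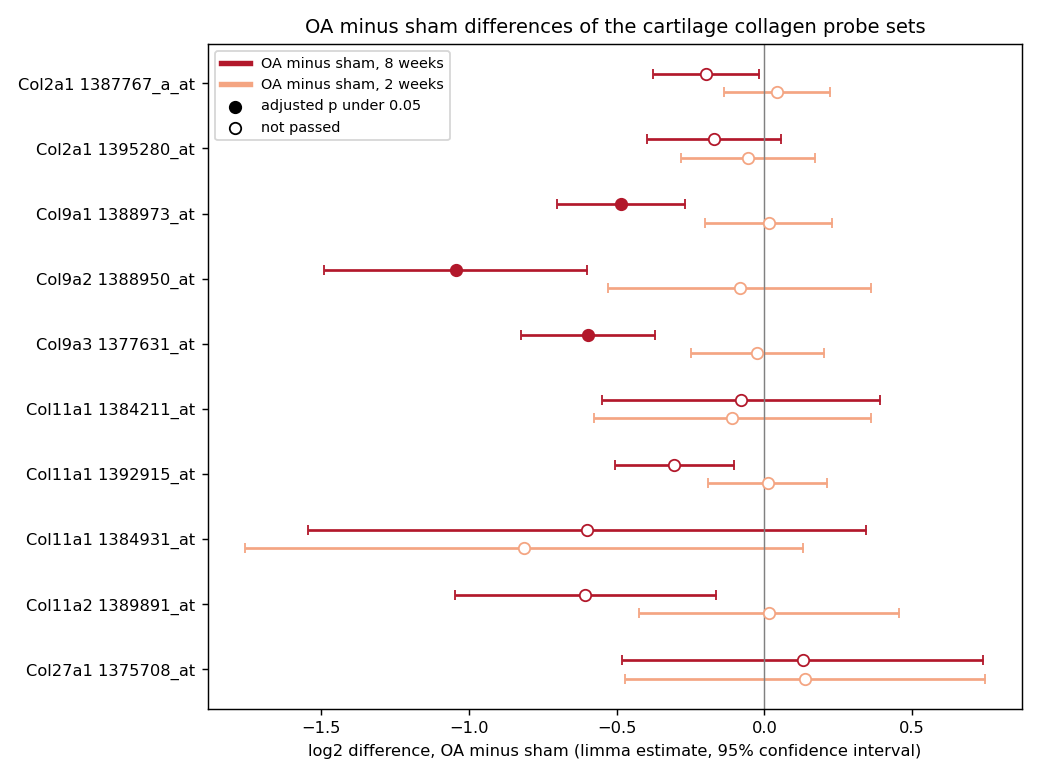
Log2 difference of OA minus sham (x axis) for each of the 10 kept probe sets (y axis) at 8 weeks and at 2 weeks, as limma estimates with 95% confidence intervals and filled points for an adjusted p under 0.05. Only Col9a1, Col9a2 and Col9a3 at 8 weeks have filled points, and the intervals at 2 weeks all include 0.

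The start regions of genes that moved together are shown as sequence for the reader to compare. RefSeq (build GRCr8) held a promoter for 5 of the 7 members, Col9a1, Col9a2, Col11a1, Col11a2 and Col27a1, and the 250 bases before the annotated start are printed for Col9a1 and Col9a2, which fell at 8 weeks, and for Col11a2, the type XI chain closest to them in its values. The windows lie at chr9:34081114-34081363 (plus strand), chr5:139892548-139892797 (plus strand) and chr20:4817649-4817898 (minus strand), and all are written 5' to 3' on the gene's strand. Capitals mark GGGCGG, the GC box that transcription factors of the SP family bind.
Col9a1 promoter: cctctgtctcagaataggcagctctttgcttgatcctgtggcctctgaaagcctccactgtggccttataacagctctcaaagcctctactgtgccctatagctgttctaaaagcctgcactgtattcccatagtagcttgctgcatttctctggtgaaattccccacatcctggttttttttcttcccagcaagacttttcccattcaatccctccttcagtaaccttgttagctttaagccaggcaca
Col9a2 promoter: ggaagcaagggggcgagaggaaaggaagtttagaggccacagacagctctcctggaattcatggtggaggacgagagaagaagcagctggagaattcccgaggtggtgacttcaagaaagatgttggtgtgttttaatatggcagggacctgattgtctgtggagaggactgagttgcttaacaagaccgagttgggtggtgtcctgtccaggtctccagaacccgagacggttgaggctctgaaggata
Col11a2 promoter: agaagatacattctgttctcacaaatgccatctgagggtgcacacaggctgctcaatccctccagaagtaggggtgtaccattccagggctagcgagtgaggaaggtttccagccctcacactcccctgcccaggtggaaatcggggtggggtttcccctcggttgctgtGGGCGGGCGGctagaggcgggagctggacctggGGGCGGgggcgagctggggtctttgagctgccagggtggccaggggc
The windows were searched on both strands for AACAAT, a core bound by SOX factors, for TATAAA, the TATA box, and for GGGCGG. Of 33469 RefSeq promoter windows of the same length, 10.3% held AACAAT, 12.9% TATAAA and 30.5% GGGCGG. Col9a1 and Col9a2 held none of the 3, and Col11a2 held GGGCGG 3 times, with 2 of the matches overlapping. Not printed, Col11a1 held GGGCGG 3 times and Col27a1 held it 1 time, and neither held AACAAT or TATAAA. The GC content was 46.8% for Col9a1, 52.0% for Col9a2 and 62.8% for Col11a2, against a median of 51.2% over all windows. Col9a1 is known to have a second, internal promoter, and which promoter the annotated start belongs to was not checked.

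Col2a1, the gene of the fibril's main chain, did not pass the test in any comparison. Its brightest probe set, 1387767_a_at, had log2 values of 15.88, 16.04 and 16.09 in OA and 16.27, 16.17 and 16.16 in sham at 8 weeks. The OA arrays lay below the sham arrays with no overlap, by little. The difference was -0.20 ± 0.08 on the log2 scale (1.15-fold lower, limma adjusted p = 0.196). Its unadjusted p was 0.0353, and the 95% interval ran from -0.377 to -0.017. The second probe set, 1395280_at, had 15.28, 15.24 and 15.45 in OA against 15.60, 15.38 and 15.51 in sham, and here the groups overlapped (log2 difference -0.17 ± 0.10, adjusted p = 0.366). At 2 weeks the first probe set had 16.11, 16.05 and 16.04 in OA, against 15.99, 16.00 and 16.08 in sham, with a difference of 0.04 ± 0.08 (adjusted p = 0.99996), and the second differed by -0.06 ± 0.10. Both probe sets followed each other over the 12 arrays with a Pearson correlation of 0.632, given as a description.

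The third Col2a1 probe set, 1371226_at, stayed near the floor, with values of 2.80 to 4.23 and only 1 array above a log2 value of 4, so the filter left it out and it has no test. It is at odds with the other 2 probe sets in level and in order, with 3.69, 4.23 and 3.44 in OA against 3.28, 3.21 and 3.26 in sham at 8 weeks. Which transcript it detects is not given in the sources used here.

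The brightest collagen probe sets sat close to the top of the array's range. The highest value of an array lay between 16.41 and 16.61, and the Col2a1 probe set 1387767_a_at ranked 4th to 9th from the top, 0.34 to 0.58 below it. The Col11a1 probe set 1384211_at lay 0.24 to 1.11 below the top of its array, and the Col9a1 probe set 0.84 to 1.61 below. Among the 111 probe sets with a mean of 15 or more, the median size of the 8-week difference was 0.11 on the log2 scale and 1 was called, against 0.16 among the 1999 probe sets with a mean of 12 to 14 and 0.25 among the 2551 with a mean of 6 to 8. The 1 called was Col9a1. The median size was 0.14 among the 353 with a mean of 14 to 15 and 0.16 among the 3120 with a mean under 6. The median standard error was 0.09 at 15 or more, against 0.13 at 12 to 14 and 0.21 at 6 to 8. The small differences of Col2a1 were thus measured where differences of all genes, and their standard errors, were small. Whether saturation compressed the Col2a1 differences was not tested.

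**Figure D3:**
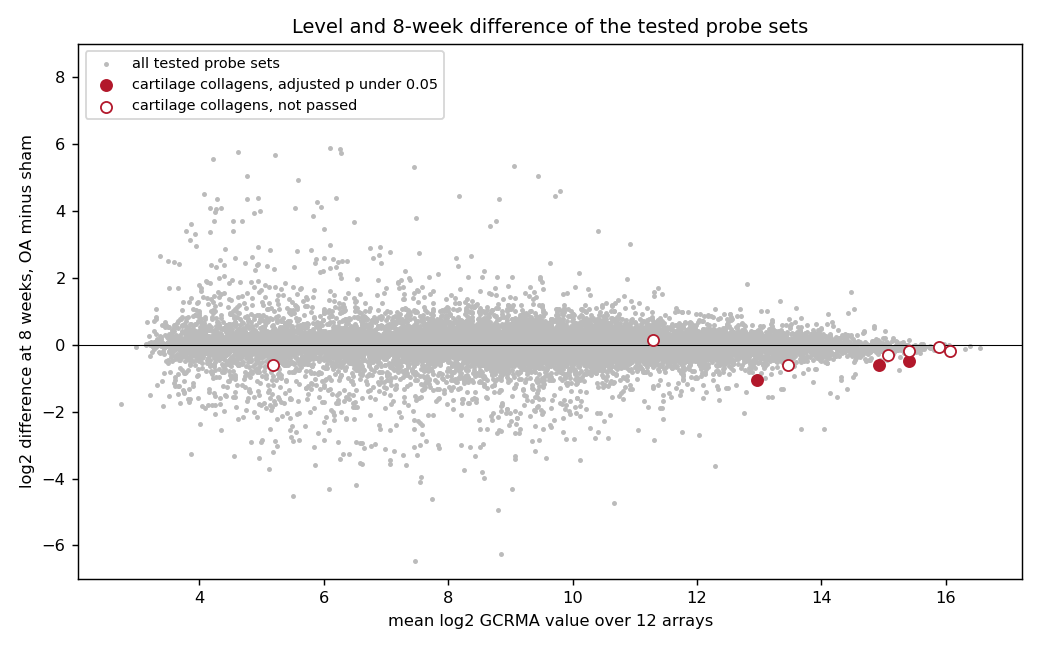
Log2 difference of OA minus sham at 8 weeks (y axis) against the mean log2 value over 12 arrays (x axis) for all 15934 tested probe sets in grey and the 10 collagen probe sets in red, filled where the adjusted p was under 0.05. The spread of the grey points narrows above a mean of 14, where 6 of the 10 collagen probe sets lie.

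Type IX and type II genes were also set against each other within each array, which removes a log2 shift common to a whole array. The mean log2 value of Col9a1, Col9a2 and Col9a3 minus that of Col2a1 (1387767_a_at) was -2.16, -2.19 and -2.04 in OA and -1.57, -1.68 and -1.61 in sham at 8 weeks. The group means were -2.13 ± 0.08 in OA and -1.62 ± 0.06 in sham (SD, n = 3 each), with no overlap. At 2 weeks they were -1.44 ± 0.15 in OA and -1.37 ± 0.12 in sham, and the groups overlapped. The numbers are differences between probe sets of different affinity, so only their change between groups can be read. The Col2a1 probe set lies near the top of the range, so an unequal change of the transcripts and a compressed Col2a1 signal cannot be told apart here. No test was made on these differences, since their genes had been tested singly.

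The type XI chains were set against Col2a1 in the same way and with the same limit. Col11a2 minus Col2a1 was -3.12 ± 0.17 in OA and -2.71 ± 0.14 in sham at 8 weeks, with arrays from -3.27 to -2.94 in OA and from -2.84 to -2.57 in sham. At 2 weeks it was -2.31 ± 0.28 in OA and -2.28 ± 0.26 in sham, with overlap. The Col11a1 probe set 1392915_at minus Col2a1 was -1.12 ± 0.04 in OA and -1.01 ± 0.04 in sham at 8 weeks.

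**Figure D4:**
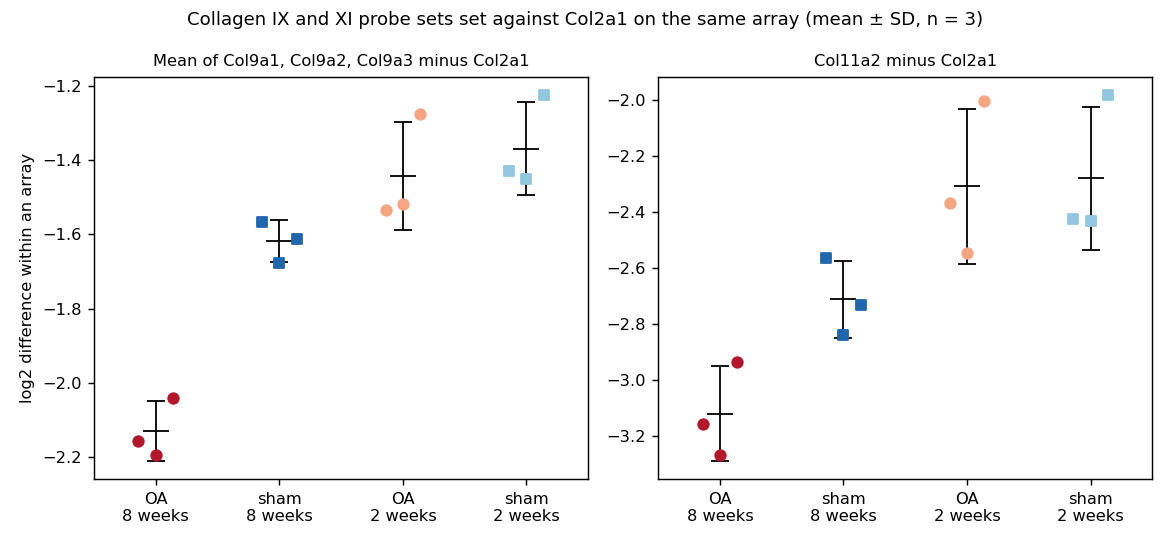
Within-array log2 difference (y axis) of the mean of Col9a1, Col9a2 and Col9a3 minus Col2a1, left, and of Col11a2 minus Col2a1, right, in the 4 groups (x axis), with points for arrays and bars for the mean ± SD of 3. The 3 OA arrays of 8 weeks lie lowest in both panels, between -2.19 and -2.04 on the left and between -3.27 and -2.94 on the right.

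Col11a2, which encodes the second chain of type XI collagen, had log2 values of 12.72, 12.77 and 13.16 in OA and 13.70, 13.33 and 13.43 in sham at 8 weeks. The OA arrays were all below the sham arrays. The difference of -0.61 ± 0.20, 1.52-fold, was as large as that of Col9a3 but had a larger standard error, and it did not pass (limma adjusted p = 0.123). Its unadjusted p was 0.0120, and the 95% interval ran from -1.05 to -0.17. At 2 weeks Col11a2 had 13.74, 13.50 and 14.04 in OA, against 13.56, 13.57 and 14.10 in sham, with a difference of 0.02 ± 0.20 (adjusted p = 0.99996). Replicate 3 was the highest array of both groups at 2 weeks, as it was for the type IX genes. The interaction was -0.62 ± 0.28 (adjusted p = 0.453).

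Col11a1, which encodes the first chain of type XI collagen, gave 3 probe sets that did not tell the same story. The brightest, 1384211_at, had 15.31, 15.88 and 15.87 in OA and 15.51, 16.00 and 15.79 in sham at 8 weeks, with overlap and a difference of -0.08 ± 0.21 (adjusted p = 0.878). The second, 1392915_at, had 14.73, 14.96 and 14.97 in OA against 15.28, 15.18 and 15.11 in sham, with no overlap. Its difference of -0.31 ± 0.09 had an unadjusted p of 0.00704 and did not pass after adjustment (adjusted p = 0.0973). The third and dim one, 1384931_at, lay at 4.18, 4.69 and 4.44 in OA and at 4.51, 5.84 and 4.76 in sham (-0.60 ± 0.42, adjusted p = 0.453). Over the 12 arrays the brightest correlated with the second at 0.292 and with the dim one at 0.679, as a description. At 2 weeks the differences were -0.11 ± 0.21, 0.01 ± 0.09 and -0.81 ± 0.42 for the 3 probe sets in that order, all with overlap and an adjusted p of 0.99996.

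Col27a1, the gene of type XXVII collagen, was the only member whose difference at 8 weeks was above 0. It had 11.26, 11.58 and 11.46 in OA, against 11.60, 11.17 and 11.14 in sham, with a difference of 0.13 ± 0.27 (95% interval -0.48 to 0.74, limma adjusted p = 0.840). The sham replicate 1 lay above all OA arrays and the other 2 sham arrays below them. At 2 weeks the gene had 11.67, 10.93 and 11.28 in OA, against 10.98, 10.72 and 11.77 in sham (0.14 ± 0.27, limma adjusted p = 0.99996). With 3 arrays a group, the 95% interval there ran from -0.47 to 0.75, so differences within that range are compatible with the values.

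Over all members, 6 of the 10 kept probe sets had OA arrays below all sham arrays at 8 weeks, beside 12.8% of all kept probe sets, and 0 had them above, beside 12.3%. At 2 weeks 0 of 10 had separate groups in either direction, beside 3.46% lower and 1.91% higher of all kept probe sets. No member was called at 2 weeks, and neither was any of the 15934 probe sets (limma, 0.00% called). At an unadjusted p under 0.05 the counts at 2 weeks were 0 of 10 member probe sets and 269 of all.

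Time after surgery was compared within each operation, where time, age and array run cannot be told apart. In OA cartilage the 3 type IX genes and Col11a2 were lower at 8 than at 2 weeks. The log2 difference of 8 minus 2 weeks was -0.64 ± 0.10 for Col9a1 (limma adjusted p = 0.000547), -0.82 ± 0.20 for Col9a2 (0.0101), -0.79 ± 0.10 for Col9a3 (0.000178) and -0.88 ± 0.20 for Col11a2 (0.00644), and in each the 8-week arrays lay below all 2-week arrays. Including the 2 Col11a1 probe sets 1392915_at and 1384931_at, 6 of 10 member probe sets were separate in this way, beside 17.5% of all kept probe sets. Col2a1 (-0.06 ± 0.08, adjusted p = 0.590), Col11a1 (-0.32 ± 0.21, 0.270) and Col27a1 (0.14 ± 0.27, 0.734) did not pass. The 4 of 7 members called lower stood beside 12.8% of all 9247 genes, and 16.5% of genes were called higher. These differences share the OA arrays of 8 weeks with the comparison of OA with sham, so they are a second view of the same 3 arrays and not further support. Markers of other tissues differed in the same comparison, by -1.41 ± 0.21 for the mean bone cell level and 5.73 ± 1.39 for the mean muscle level. Of the kept markers 10 of 15 muscle genes were called higher, and 5 of 5 osteoclast and 6 of 10 osteoblast and osteocyte genes lower. Fits with these levels as covariates are given with the processing.

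In sham cartilage no member passed between the times, beside 5.39% of genes called lower and 9.46% called higher. Col9a3 was lower at 8 weeks in every sham array (-0.22 ± 0.10, adjusted p = 0.205) and the Col2a1 probe set 1387767_a_at higher in every sham array (0.18 ± 0.08, adjusted p = 0.196), so 1 of 10 member probe sets was separate in each direction, beside 11.3% of all kept probe sets lower and 23.9% higher. Col9a1 differed by -0.14 ± 0.10, Col9a2 by 0.14 ± 0.20, Col11a2 by -0.26 ± 0.20, Col11a1 by -0.35 ± 0.21 and Col27a1 by 0.15 ± 0.27. At an unadjusted p under 0.05 the count was 0 of 7 genes and 1 of 10 probe sets, the dim Col11a1 one, and 4287 of all 15934 kept probe sets. The median of all kept probe sets in this comparison was 0.08 and turned to -0.09 when the array medians were equalized, and the sign of the Col9a2 and Col27a1 differences turned with it.

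The members followed each other unevenly from array to array. With each group's mean taken out, so that only the spread within groups remained, the Pearson correlation over the 12 arrays was 0.951 for Col9a2 with Col11a2, 0.917 for Col9a3 with Col11a2, 0.834 for Col9a1 with Col9a2, 0.836 for Col9a2 with Col9a3 and 0.595 for Col9a1 with Col9a3. Col2a1 correlated at 0.894 with Col9a1 and at 0.359 with Col9a3. The brightest Col11a1 probe set, 1384211_at, stood apart from the partner chain, with -0.156 for it with Col11a2 and -0.420 for it with Col27a1. Each gene was read here by its brightest probe set. The second Col11a1 probe set, 1392915_at, which followed 1384211_at at only 0.292 without the centring, was left out, so this does not describe the gene as a whole. These are descriptions over arrays that share RNA, hybridization and scaling, with no test.

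The genes most like the members over the 12 arrays, after each time's mean was taken out, are named here for Col2a1 and for the mean of the 3 standardized type IX profiles. Nearest to type IX were Spon2 (Pearson r = 0.972), Pamr1 (0.970), Phex (0.967), Odc1 (0.965) and Serinc5 (0.965). Without the centring they were Gpx8 (0.972), Dmp1 (0.971), Serinc5 (0.971), Pamr1 (0.967) and Evl (0.967). Phex and Dmp1 are genes of osteocytes, and they fell in OA at 8 weeks by far more than the collagens, with log2 differences of -2.53 ± 0.38 for Phex (limma adjusted p = 0.0110) and -2.22 ± 0.39 for Dmp1 (0.0185). Serinc5 kept a correlation of 0.948 and Phex of 0.851 when each group's mean was removed. Nearest to Col2a1 were U2af2 (0.950), Retreg2 (0.945), Tmbim6 (0.932), Tsc22d1 (0.930) and Ciapin1 (0.929), and without the centring Retreg2 (0.943), U2af2 (0.933), P4hb (0.915), Tsfm (0.909) and Spcs1 (0.907). P4hb encodes a subunit of the enzyme that hydroxylates collagen proline, and Spcs1 a subunit of the signal peptidase. The members and genes with symbols starting with LOC or RGD were left out of the 9247 genes for this search. Picked as the highest of the rest, these correlations are high by choice.

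Markers of bone cells moved with the type IX genes. The mean log2 level of 17 markers of osteoclasts, osteoblasts and osteocytes was 9.40, 9.85 and 10.23 in OA and 11.21, 11.13 and 11.37 in sham at 8 weeks, and lay between 11.20 and 11.33 in OA and between 11.07 and 11.65 in sham at 2 weeks. It differed by -1.41 ± 0.21 at 8 weeks and by -0.06 ± 0.21 at 2 weeks. The marker counts at 8 weeks stand beside 2.45% of all 9247 genes called lower and 1.03% called higher. Of the kept markers, 5 of 5 osteoclast genes and 3 of 10 osteoblast and osteocyte genes were called lower in OA at 8 weeks, and Calcr and Sost never exceeded a log2 value of 4. Macrophage markers were lower as well, with mean levels of 6.21 to 6.34 in OA and 7.13 to 9.83 in sham and 4 of 15 kept genes called lower. Muscle markers had mean levels of 9.39 to 14.46 in OA and 5.34 to 9.92 in sham at 8 weeks, against 4.58 to 7.37 in OA and 5.07 to 6.17 in sham at 2 weeks. At 8 weeks 0 of 15 were called, though 14 of 15 differences were above 0, with a median of 4.45.

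Within groups, the bone cell level correlated with Col9a2 at 0.848, with Col2a1 at 0.758, with Col9a1 at 0.749, with Col11a2 at 0.732, with Col9a3 at 0.640, with Col27a1 at 0.473 and with Col11a1 (1384211_at) at 0.388 over the 12 arrays, as a description. In a fit added once the data had been seen, with the bone cell level as a covariate, the 8-week difference was -0.09 ± 0.21 for Col9a1, 0.10 ± 0.31 for Col9a2 and -0.23 ± 0.23 for Col9a3, and none passed (limma adjusted p = 0.951, 0.965 and 0.816). The level itself differs between the groups, so this fit cannot tell the operation and the level apart. With the muscle level as a covariate the differences were -0.41 for Col9a1, -0.92 for Col9a2 and -0.56 for Col9a3, against -0.48, -1.04 and -0.60 without it. None passed with it (limma adjusted p = 0.290, 0.250 and 0.178). The muscle level also differed between the groups at 8 weeks, by 4.07 ± 1.39, so this fit has the same limit. Of the 7 chondrocyte markers 0 were called in OA at 8 weeks, with 5 differences above 0, 2 below and a median of 0.06. Acan, Hapln1, Comp and Chad lay above a log2 value of 14 in all arrays, where differences of all genes were small. Ucma lay just above the filter, at 4.12 to 4.94. Whether this narrowed the marker differences was not tested.

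**Figure D5:**
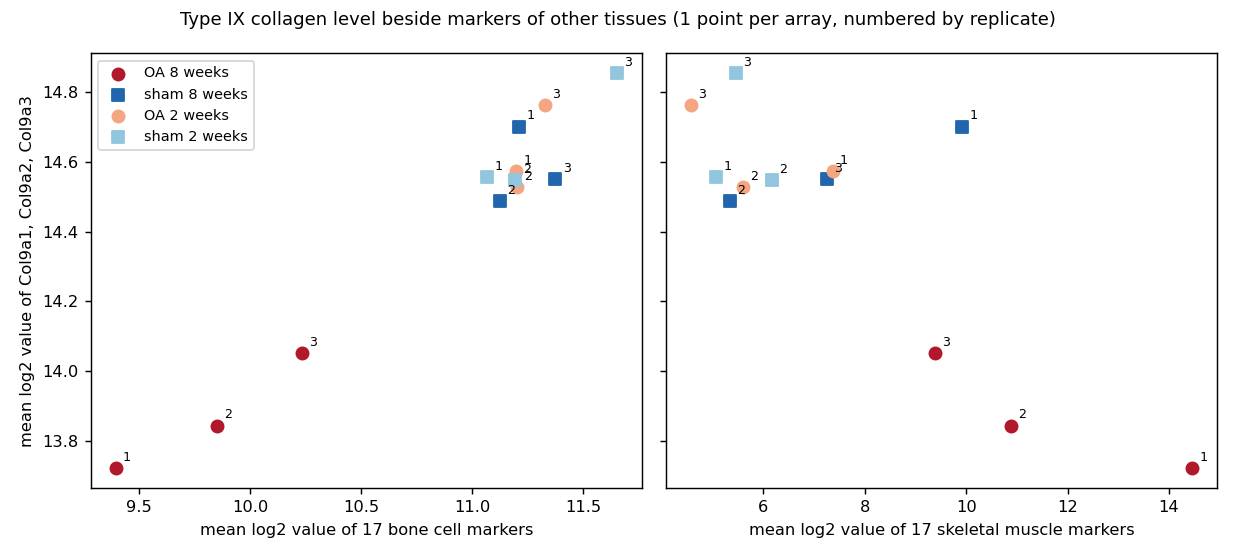
Mean log2 value of Col9a1, Col9a2 and Col9a3 (y axis) against the mean log2 value of 17 bone cell markers, left, and of 17 skeletal muscle markers, right (x axes), with 1 point per array numbered by replicate. The 3 OA arrays of 8 weeks lie alone at low type IX and low bone cell values, and 2 of them at muscle levels above all other arrays.

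Genes that act on collagens were read at 8 weeks beside the 2.45% of genes called lower and 1.03% called higher and the median of -0.03. Of 20 kept genes for folding, modification and secretion, 2 fell and 0 rose in OA, with 16 of 20 differences below 0 and a median of -0.20. Serpinh1, which encodes the collagen chaperone HSP47, fell (log2 difference -0.54 ± 0.10, limma adjusted p = 0.0261), and so did Colgalt1, a collagen galactosyltransferase (-0.65 ± 0.14, 0.0365). Xbp1, a transcription factor of the secretory pathway, differed by -0.34 ± 0.10 (0.0941) and P3h1, a prolyl 3-hydroxylase, by -0.94 ± 0.28 (0.0954). Of 7 kept genes for processing and crosslinking, 3 fell, and all 7 differences were below 0 with a median of -0.85. Bmp1, the protease that removes the C-propeptides of fibrillar procollagens, had a difference of -1.05 ± 0.18 (0.0161), Pcolce, its enhancer, of -0.81 ± 0.17 (0.0352), and Loxl3, a lysyl oxidase that crosslinks collagen, of -0.85 ± 0.18 (0.0381). Bone cells use most of these genes too, and the bone cell markers were lower in the same arrays, and their part in these falls was not tested.

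Of the collagens outside the hyaline fibril, 2 passed. For comparison, 55.4% of all 9247 genes had a difference below 0 at 8 weeks. All 7 other fibrillar collagens had differences below 0 at 8 weeks (median -0.49), and 0 passed, with Col24a1 at -1.04 ± 0.29 (adjusted p = 0.0804), Col1a1 at -1.05 ± 0.44 (0.208) and Col5a1 at -0.49 ± 0.21 (0.217). Of 8 other chondrocyte and pericellular collagens all were below 0 (median -0.73) and 2 fell, Col16a1 (-0.69 ± 0.12, 0.0169) and Col6a1, a chain of the pericellular type VI collagen (-0.44 ± 0.10, 0.0494). Col22a1, a collagen of tissue junctions, differed by -0.95 ± 0.31 (0.120). Of 14 kept matrix partners of the fibril 1 was called lower and 0 higher, with 8 differences above 0, 6 below and a median of 0.02. Bgn, which encodes the small proteoglycan biglycan, fell (-0.52 ± 0.11, 0.0368), Ogn differed by -0.88 ± 0.32 (0.160) and Dcn, decorin, by 0.56 ± 0.23 (0.205).

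Of 8 kept regulators of cartilage collagen genes, 1 fell in OA at 8 weeks and the median difference was 0.05. It was Nfatc2, a transcription factor of the NFAT family (log2 difference -1.20 ± 0.28, limma adjusted p = 0.0494). Snai1, a repressor of Col2a1, differed by -0.92 ± 0.23 (0.0610), and Sox6, a partner of SOX9 in the activation of cartilage genes, by 0.08 ± 0.13 (0.769). Of 4 kept collagen receptor genes 0 passed (median -0.10), with Itga11, a collagen-binding integrin subunit, at -0.81 ± 0.23 (0.0824) and Ddr2, a receptor tyrosine kinase for collagen, at 0.20 ± 0.09 (0.238). Among 8 collagen-degrading proteases 1 rose and 3 fell (median -0.80). Mmp3, the gene of stromelysin, rose by 1.57 ± 0.14 (0.000771). The falls were -1.31 ± 0.16 for Ctsk (0.00499), -3.62 ± 0.45 for Mmp9 (0.00499) and -2.51 ± 0.46 for Mmp13, whose product cleaves type II collagen (0.0219). Ctsk and Mmp9 are also defining markers of osteoclasts.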

How the data were processed

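The authors deposited log2 values of 31099 probe sets per array, background corrected, normalized and summarized with GCRMA per the submitters' processing notes, which state no version. They were used as deposited. Gene symbols came from GEO's platform annotation. They were checked against a current table of rat genes, which changed 0 symbols. A total of 20832 probe sets carried 1 symbol, 436 several and 9831 none.

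Of the probe sets, 57 controls were left out, and 15934 with a log2 value above 4 in at least 3 of 12 arrays were kept. A gene was counted by its kept probe set with the highest mean. Limma 3.58.1 in R 4.3.3 fitted 1 mean per group with eBayes (prior degrees of freedom 1.94, residual 8). Rose and fell mean a p-value under 0.05 after Benjamini-Hochberg adjustment over all kept probe sets. Errors on differences are standard errors. The fit was tested on simulated data. Figures and promoter searches used matplotlib 3.10.9, numpy 2.4.6 and pandas 2.3.3 under Python 3.11.15. The number of arrays limits the precision.

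Replicate numbers come from the labels. The deviations of same-numbered OA and sham arrays from their group means correlated at 0.239, 0.237 and 0.119 at 8 weeks and at 0.333, 0.360 and 0.527 at 2 weeks. Arrays of different number correlated at -0.266 to 0.142 at 8 weeks and at -0.381 to 0.069 at 2 weeks. The ranges thus overlapped at 8 weeks, and what the number marks is not given in the labels. A fit with this pairing is given where it changes a call. All members were named. Of each other list, the 2 to 4 genes with the smallest unadjusted p in the comparison were named, and every called gene where these were 6 or fewer, and the 5 genes most correlated with Col2a1 and with type IX. Members and lists were chosen with earlier results of these data known. Alternatives covered the filter, normalization, array weights, variance model, pairing, arrays left out, marker covariates and the second-brightest probe set.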

Additional observations from a re-analysis of the deposited data

How the results depend on the processing

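The 3 called members at 8 weeks stayed at 3, or at 2 with the pairing within each time, in 17 of 26 alternative settings. The count became 0 with equalized array medians (Col9a2 adjusted p = 0.0515, Col9a3 0.0534, Col9a1 0.0867), in a fit of the 8-week arrays alone (0.0806 to 0.148), without both 8-week arrays numbered 1, and with the muscle or the bone cell level as a covariate. Leaving out each array in turn gave counts of 0 to 3, with 1 (Col9a3) without OA replicate 1 and 0 without OA replicate 2, sham replicate 2 or sham replicate 3 of 8 weeks. The log2 differences without a covariate stayed below 0, from -0.55 to -0.35 for Col9a1, -1.20 to -0.80 for Col9a2 and -0.64 to -0.56 for Col9a3. All probe sets called at 8 weeks numbered 552, and 1037 with the pairing within each time, 1567 with array weights, 828 with added quantile normalization, 362 with no filter, 283 with equalized medians, 27 in the 8-week arrays alone, 36 with the muscle and 3 with the bone cell covariate. They numbered 110 to 987 with 1 array left out. The reduced fits also held fewer arrays, and the cause of these shifts was not tested.

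The 4 members called between the times in OA stayed at 4 with each array left out in turn, and became 1 (Col9a3) with the muscle covariate and 0 with the bone cell covariate. Across the times, same-numbered arrays correlated weakly in OA (0.035, 0.237 and 0.049) and with mixed sign in sham (-0.497, 0.074 and -0.424). Arrays of different number correlated at -0.231 to 0.120 in OA and at -0.505 to 0.640 in sham. With the number as a block over both times, Col11a1 passed between the times in sham, which brought that count to 1 (-0.35, adjusted p = 0.0346), and in OA (-0.32, 0.0307). With the pairing within each time, Col9a1 lost its call at 8 weeks (0.0561), and no other call of a member changed with a block. That pairing could not be fitted for the comparisons between times.

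Signs turned only for values that passed in neither setting, except with the bone cell covariate, where Col9a2 turned at 8 weeks (0.10) and Col9a2 and Col11a2 within OA (0.33 and 0.10). That covariate also turned, at 8 weeks, Col2a1 (0.083), Col11a1 (0.48) and Col11a2 (0.37), in the average Col2a1 (0.069), Col9a2 (0.036), Col11a1 (0.20) and Col11a2 (0.22), in the interaction Col2a1 (0.027), Col9a2 (0.14), Col11a2 (0.31) and Col27a1 (0.85), and within OA Col2a1 (0.22) and Col11a1 (0.24). The muscle covariate turned Col11a1 at 8 weeks (0.37), in the average (0.15) and within OA (0.31) and Col27a1 within OA (-0.024). Quantile normalization turned Col2a1 (-0.044) and Col9a1 (-0.016) at 2 weeks, array weights Col9a2 (0.022) and Col9a3 (0.037) at 2 weeks. Equalized medians turned Col9a2 (-0.030) and Col27a1 (-0.025) within sham and Col27a1 within OA (-0.039). Without both 8-week arrays numbered 1, Col27a1 turned in the interaction (0.23) and within sham (-0.0018). With each array left out in turn, values crossed 0 at 2 weeks for Col9a1 (-0.014 to 0.055), Col9a2 (-0.20 to 0.087), Col9a3 (-0.093 to 0.069), Col11a1 (-0.25 to 0.054), Col11a2 (-0.12 to 0.19) and Col27a1 (-0.082 to 0.44). They also crossed 0 for Col11a1 at 8 weeks (-0.21 to 0.11), in the average (-0.16 to 0.0019) and in the interaction (-0.13 to 0.22), and for Col27a1 in the interaction (-0.31 to 0.21), within sham (-0.072 to 0.45) and within OA (-0.039 to 0.33).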

Other observations

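Between the times, Arid5b, which encodes a co-activator of SOX9 in mouse chondrocytes, had the smallest p among the genes of the collagen lists. It rose at 8 against 2 weeks by 1.87 ± 0.07 in OA (limma adjusted p = 2.03e-08) and by 1.80 ± 0.07 in sham (2.96e-08), while OA minus sham was 0.05 ± 0.07 at 8 weeks (0.717). In OA, 2 of 8 kept regulators rose between the times and 1 fell, beside 16.5% of genes called higher and 12.8% lower, with Wwp2, a ubiquitin ligase whose gene hosts a cartilage microRNA, higher by 0.41 ± 0.14 (0.0402) and Snai1 lower (-0.92 ± 0.23, 0.0115). Time, age and array run cannot be told apart in these values.

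The other lists in OA between the times are read beside the same 16.5% of genes called higher and 12.8% lower. Processing and crosslinking genes fell in 3 of 7, with log2 differences of -0.83 ± 0.17 for Pcolce (limma adjusted p = 0.00396), -1.92 ± 0.50 for Loxl1 (0.0135) and -0.65 ± 0.18 for Bmp1 (0.0178). Of 20 kept folding genes 2 fell and 1 rose, shares below those of all genes. Serpinh1 (-0.55 ± 0.10, 0.00255) and P3h4 (-1.12 ± 0.25, 0.00622) fell, and Tmem38b rose by 0.74 ± 0.22 (0.0273). Of 7 other fibrillar collagens 1 fell, Col24a1 (-1.44 ± 0.29, 0.00348), and of 8 pericellular collagens 2, Col16a1 (-0.50 ± 0.12, 0.00940) and Col22a1 (-0.98 ± 0.31, 0.0323). Of 14 matrix partners 1 rose and 1 fell: Dcn rose by 0.92 ± 0.23 (0.0123) and Ogn fell (-1.16 ± 0.32, 0.0191).

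The Col11a1 probe set 1384211_at had its lowest value in the array numbered 1 in all 4 groups and its highest in the array numbered 2, with 15.31, 15.51, 15.69 and 15.96 against 15.88, 16.00, 16.29 and 16.34 in OA and sham at 8 weeks and OA and sham at 2 weeks. Its values within groups correlated with the muscle marker level at -0.761 over the 12 arrays, as a description. The part of muscle RNA or of array handling in this order was not tested.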
